A study of Mus musculus with 20 samples.

Results

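OR2 (MDA594OR2 in the labels) is an olaparib-resistant derivative of the mouse breast tumour MDA594, carried as an allograft, that is, as mouse tumour tissue grown in host mice. Olaparib response of these tumours was read from 5 of the 20 libraries of the series, chosen by their titles and treatment labels. Olaparib-treated OR2 had 3 libraries, each with a different host code, and untreated OR2, called vehicle in the deposited table, had 2 libraries that share 1 host code. The host code is a reading of the last field of the title, which the labels do not explain. The titles of treated libraries carry the value 100 after the drug's name, and its unit is not given. The other groups were olaparib-treated and untreated MDA594, the PARP inhibitor-sensitive parent (3 and 4 libraries), and olaparib-treated and untreated OR1, a second resistant derivative (4 and 3 libraries). All were labelled breast cancer allograft tissue, and strain, tumour and host genotype, age and treatment length are not given in the sources used here. OR2 is 1 resistant line, so its libraries do not stand for resistant tumours at large. The design asks how resistant tumours differ in their transcriptomes from sensitive ones, with and without the drug. Below, libraries are named olaparib 1, 2 and 3 and control 1 and 2, levels are log2 CPM, reads scaled to the size of each library,, and a difference is the fitted olaparib mean minus the fitted control mean on that log2 scale, with its standard error (SE).

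PARP1 and PARP2 are enzymes that bind breaks in DNA and mark nearby proteins with chains of ADP-ribose. Olaparib blocks this reaction and holds the enzymes on DNA, which cells lacking homologous recombination repair tolerate poorly. DNA that escapes into the cytosol of such cells can be read by the sensor cGAS and its adaptor STING, which switch on interferon genes and call in immune cells.

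The 3 olaparib libraries held 116, 97.0 and 94.1 M reads and the 2 control libraries 77.6 and 74.9 M reads. The luminal epithelial marker Epcam was at 9.63, 9.84 and 10.37 in olaparib 1, 2 and 3, against 10.10 and 9.36 in the controls, so all 5 libraries carry epithelial tumour RNA. Distances between libraries do not follow treatment. Over 13164 genes with a mean above 1, the closest of the 10 pairs was olaparib 2 with control 2, at a root mean square difference of 0.458, nearer than the 2 controls to each other (0.554). Olaparib 1, which differs from the rest in its title number and its series of library names, stood 0.727 to 0.853 from the other 4. The first principal component (41.1% of the variance) did not part the groups. On it olaparib 1, 2 and 3 lay at -51.1, 26.61 and 40.53, on both sides of the controls at -20.37 and 4.319. On the second principal component (30.1% of the variance) olaparib 1, 2 and 3 lay at -31.56, 11.39 and -35.65, all below both controls at 28.84 and 26.98. Olaparib 3 had the lowest score, meaning the mean level of a gene list, for mitochondrially encoded genes, at 9.806 against 10.95 to 11.97 in the other 4 libraries. Olaparib 2 had the highest score of the 5 libraries for macrophage, T cell, dendritic cell and fibroblast genes.

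Across 16330 tested genes, 0 differed between olaparib and control OR2 tumours at an adjusted p under 0.05 (limma, Benjamini-Hochberg), which is 0 percent in either direction. The smallest adjusted p was 0.175. Leaving out control 2 gave 102 genes past adjustment and leaving out olaparib 2 gave 2, where a lone control is assumed to vary like the other groups. With the title number as a covariate, chosen after seeing the data, 75 genes passed, 35 higher and 40 lower. The OR2 differences in that fit equal those without olaparib 1, where 0 genes passed, and its estimated host correlation was -0.127, against 0.404. At an unadjusted p under 0.05, 535 genes were higher with olaparib (3.28%) and 549 were lower (3.36%), against 854 higher without control 2 and 1213 lower without olaparib 1. In 1719 genes (10.5%) all 3 olaparib libraries lay above both controls, and in 1732 (10.6%) all 3 lay below. Without the covariate and with every library, 9 genes were called higher (0.0551%) and 11 lower (0.0674%) with olaparib in MDA594, where 8.71% were higher and 8.07% lower at an unadjusted p under 0.05, and 0 in OR1, where 700 genes were higher (4.29%) and 259 lower (1.59%) at an unadjusted p under 0.05. The median SE of a gene was 0.331 in the OR2 comparison. A mean of 3 treated libraries can be set by 1 that lies apart. With 3 libraries against 2 there are 10 arrangements, and an exact permutation test of a single value could not go below a two-sided p of 0.2. The error behind each p-value is pooled over 19 libraries of 6 groups and may be technical in part, and the 2 OR2 controls, with 1 host code, give no measure of the spread between untreated OR2 hosts.

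The smallest p in the OR2 comparison belonged to Csrnp2 (ENSMUSG00000044636.7), a nuclear protein of the AXUD1 family. It was at 5.08, 5.08 and 5.12 in olaparib 1, 2 and 3 and at 6.32 and 6.15 in the controls, a difference of -1.15 (SE 0.19, adjusted p = 0.175 by limma). The 3 olaparib libraries agree within 0.05 and both controls lie above them. Stard5 (ENSMUSG00000046027.18), a carrier of sterols and bile acids, was at 4.92, 5.34 and 5.43 with olaparib and at 6.45 and 6.05 in controls, a difference of -1.02 (SE 0.20, adjusted p = 0.282 by limma). Fscn1 (ENSMUSG00000029581.15), which bundles actin in migrating and mature dendritic cells, was at 7.42, 6.89 and 8.09 with olaparib and at 3.96 and 5.64 in controls. Its difference was 2.67 (SE 0.55, adjusted p = 0.282), with no overlap between the groups but a wide gap between the 2 controls.

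Among genes whose groups did not overlap and whose higher group averaged at least 1, the 12 largest positive differences ran from Cd74 at 2.60 to Ifi202b at 4.19. Ifi202b (ENSMUSG00000026535.10), of the interferon-inducible Ifi200 family of nucleic acid-binding proteins, had 270, 1749 and 462 reads in olaparib 1, 2 and 3, against 18 and 33 in the controls. Plekhb1, a membrane-associated adaptor, had 1039, 2089 and 4386 reads with olaparib, against 27 and 430 in controls. Sarm1, an enzyme that consumes NAD+ and drives axon degeneration, had 1040, 311 and 496 reads, against 32 and 104. By the choice of genes every olaparib library is above both controls in these 3, and the highest olaparib library differs from gene to gene. Slc5a8, a transporter of short-chain fatty acids and lactate, was at 2.92, 4.68 and 6.27 with olaparib and 1.02 and 2.44 in controls. The list also held Zfp345, a zinc finger gene; Adcy1, a calcium-stimulated adenylyl cyclase; Rsph9, of the ciliary radial spoke; Lhfpl4, of inhibitory synapses; and Thbs4, a matrix glycoprotein. Lhfpl4 rests on olaparib 1, which had 2410 reads against 178 and 136 in olaparib 2 and 3 and 31 and 52 in controls.

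**Figure D1:**
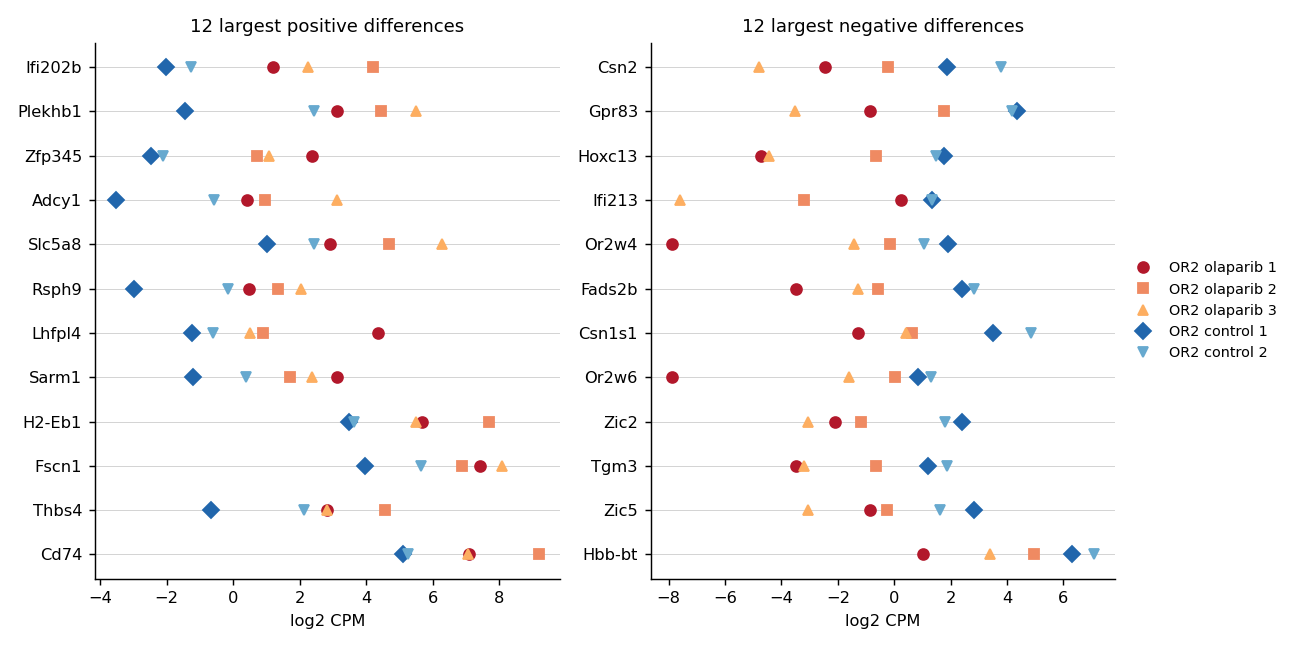
Levels in log2 CPM (x axis) of the 24 genes with the largest positive (left) and negative (right) differences in OR2 whose groups do not overlap, with 1 point for each of the 3 olaparib (warm colours) and 2 control (blue) libraries. The spread among olaparib libraries is often as wide as the gap to the controls, as for Lhfpl4 at 4.35, 0.90 and 0.50.

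The 12 largest negative differences ran from Csn2 at -5.31 to Hbb-bt at -3.58. Gpr83 (ENSMUSG00000031932.15), a G protein-coupled receptor of brain and regulatory T cells, was at -0.87, 1.77 and -3.50 in olaparib 1, 2 and 3 and at 4.35 and 4.19 in controls. Hoxc13, a homeobox factor of hair and nail, had 4, 60 and 4 reads with olaparib, against 252 and 225 in controls. The paired zinc finger factors Zic2 and Zic5, which lie side by side in the genome and act in neural development, had 27, 42 and 11 reads and 64, 80 and 11 reads with olaparib. The controls had 398 and 281 reads of Zic2 and 525 and 248 reads of Zic5. Tgm3, a transglutaminase of skin and hair, had 10, 61 and 10 reads, against 171 and 296. By the choice of genes both controls are above all olaparib libraries in these 5, and in each olaparib 2 is the highest of the olaparib libraries. Ifi213, Or2w4 and Or2w6 each had 1 olaparib library with 0 reads and another with at least 10, and Fads2b had 10, 63 and 39 reads against 390 and 573. Ifi202b and Ifi213 belong to a family of close copies on chromosome 1, so reads may have been split among them and their values are uncertain.

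Neighbouring genes differed in the same direction in 2 stretches of the genome. In the order of genes along each chromosome, 11961 genes with a mean of at least 2 were cut into windows of 40, and 298 windows held at least 20. The median difference of a window reached 0.3 in 8 windows and -0.3 in 7 windows of the OR2 comparison, against 1 and 3 in MDA594 and 1 and 1 in OR1. The standard deviation of window medians was 0.132 in OR2, 0.108 in MDA594 and 0.0879 in OR1. The window size and the 0.3 threshold were chosen after values were seen, so these counts carry no test.

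**Figure D2:**
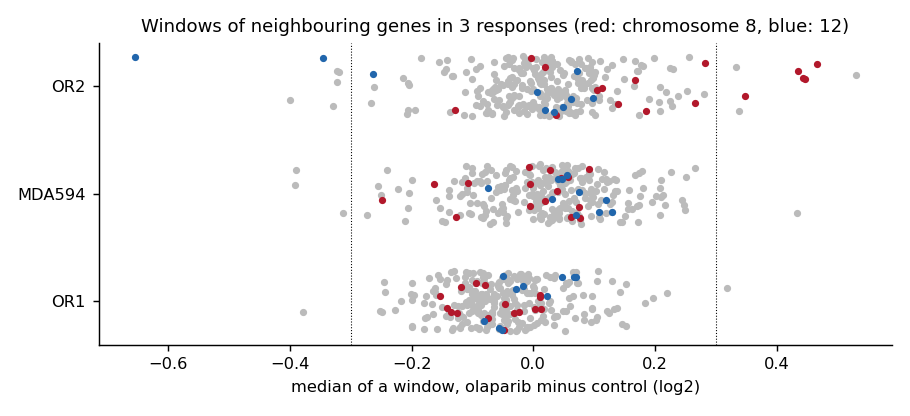
Median difference, olaparib minus control on the log2 scale (x axis), of each of 298 windows of neighbouring genes in the OR2, MDA594 and OR1 comparisons (rows), with dotted lines at -0.3 and 0.3 and random vertical scatter. The OR2 points reach from -0.655 to 0.531, and chromosomes 8 (red) and 12 (blue) supply 5 of the 8 windows above and 2 of the 7 below the lines.

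On chromosome 8, 5 windows in a row, from Prdx2 to Sdr42e1, had medians of 0.447, 0.443, 0.435, 0.466 and 0.348. Of these 200 genes, 169 had positive differences, 112 had all olaparib libraries above both controls, and 78 (39%) had an unadjusted p under 0.05, against 3.73% of all placed genes. These windows were picked out by their OR2 medians, so high shares in OR2 follow from that choice and carry no test. The median difference over the 200 genes was 0.446, a ratio of 1.36. In the same genes 3 were higher at that threshold in OR1, against 4.29% of all tested genes, and 14 in MDA594, against 8.71%. Lower at that threshold were 2 in OR1, against 1.59%, and 13 in MDA594, against 8.07%. Measured against untreated MDA594, window medians lay at -0.101 to 0.136, -0.2 to 0.0301 and 0.0269 to 0.237 in olaparib 1, 2 and 3. They lay at -0.663 to -0.465 in control 1 and -0.386 to -0.203 in control 2. The olaparib libraries are thus near the parent level and both controls are below it, control 1 further than control 2. Upstream, in windows 5 to 9 of the chromosome, control 1 stayed at -0.599 to -0.452 while control 2 lay at -0.126 to 0.209. Low values also occurred in OR1 in windows 5 to 7. There OR1 control 3 was at -0.375, -0.441 and -0.398 and OR1 olaparib 2 at -0.625, -0.646 and -0.628. Nae1 (ENSMUSG00000031878.19), a subunit of the enzyme that activates NEDD8, was at 6.07, 5.52 and 5.99 in olaparib 1, 2 and 3 and at 5.15 and 5.15 in controls, a difference of 0.71 (SE 0.17).

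At the far end of chromosome 12 the direction was the opposite. The last 2 windows, from Gm19605 to Macc1, held 56 genes with a median of -0.668, a ratio of 0.629. Of these, 52 had negative differences, 43 had all olaparib libraries below both controls, and 34 (60.7%) were lower at an unadjusted p under 0.05, against 3.29% of all placed genes. Here too the stretch was picked out by its OR2 values, so high shares in OR2 follow from that choice. In MDA594 and OR1, 3 and 2 of the 56 were lower at that threshold, against 8.07% and 1.59% of all tested genes. Higher at that threshold were 8 and 2, against 8.71% and 4.29%. Against untreated MDA594 the 2 window medians were 0.0459 and 0.0485 in olaparib 1, -0.089 and 0.0127 in olaparib 2, and -0.264 and -0.26 in olaparib 3. The 2 controls were at 0.609 and 0.653, and at 0.29 and 0.493. Here the controls are above the parent level, and olaparib 3 is below it. In the 2 windows before these, olaparib 2 and 3 lay at -0.541 to -0.334 while olaparib 1 and both controls lay at -0.118 to 0.195.

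Several genes with small p-values in OR2 come from that end of chromosome 12. Bag5, a co-chaperone of HSP70, was at 5.24, 5.33 and 5.11 in olaparib 1, 2 and 3 and at 6.4 and 6.04 in controls, a difference of -0.99 (SE 0.20, adjusted p = 0.282 by limma). Akt1, a kinase of growth factor signalling, was at 7.97, 8.17 and 8.0 with olaparib and at 8.75 and 8.76 in controls, a difference of -0.71 (SE 0.15). Mta1, of the NuRD chromatin complex, was at 6.95, 6.83 and 6.84, against 7.61 and 7.37. Dync2i1, of the ciliary dynein-2 motor, was at 4.84, 4.81 and 4.47, against 5.67 and 5.48. In these 4 genes the groups do not overlap. Xrcc3, a gene of homologous recombination that lies in the same stretch, was at 3.97, 3.33 and 2.87, against 4.34 and 4.11, a difference of -0.83 (SE 0.30, unadjusted p = 0.0131).

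**Figure D3:**
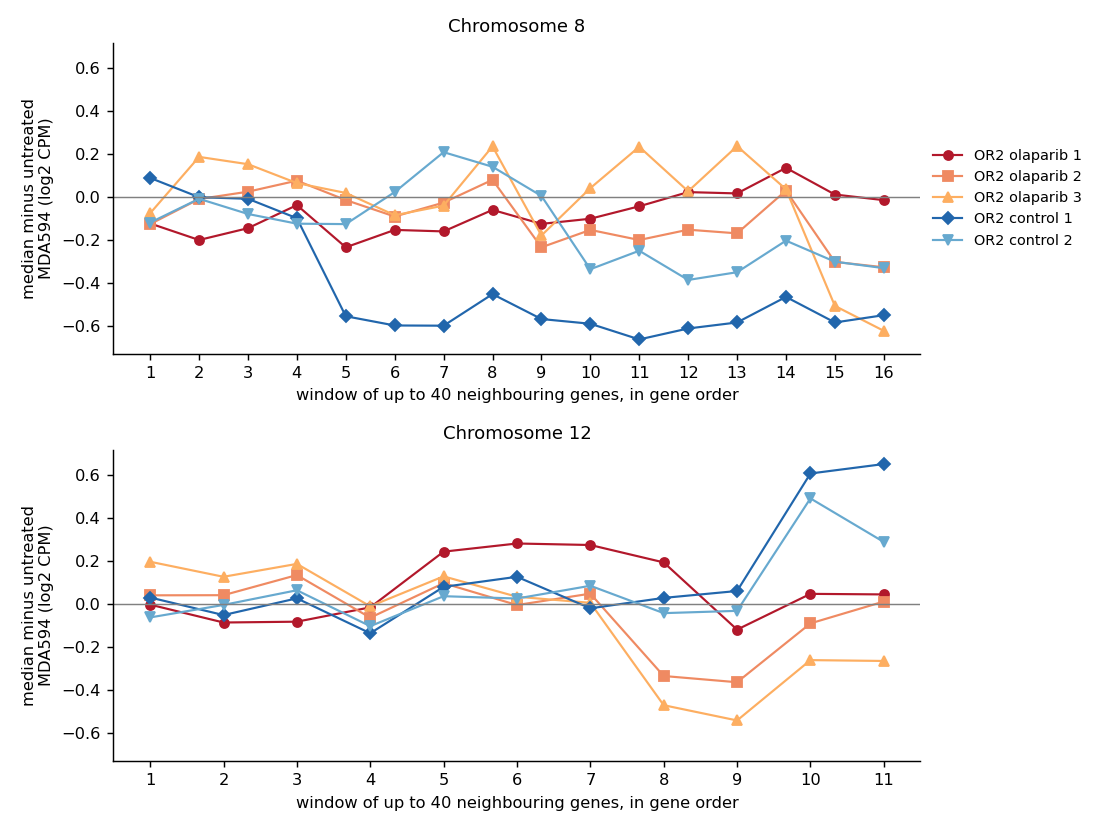
Window medians of neighbouring genes along chromosomes 8 (top) and 12 (bottom), in gene order (x axis), as the log2 CPM of each OR2 library minus the untreated MDA594 mean (y axis). From window 10 to 14 of chromosome 8 both controls lie below all olaparib libraries, and in windows 10 and 11 of chromosome 12 both lie above them.

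The chromosome 8 count of 78 was 25 without control 1, 51 without olaparib 3 and 84 to 91 without any other library, and the chromosome 12 count of 34 was 28 to 38 without any 1 of the 5 libraries. Several other windows past 0.3 are set by 1 library. Windows 7 and 8 of chromosome 5 were at 0.62 and 0.773 in control 1 and at -0.0676 to 0.192 in the other libraries. The first window of chromosome 7 was at -1.01 in olaparib 1 and -0.102 to 0.204 elsewhere, and the last window of chromosome 2 with 20 or more genes was at 0.539 in olaparib 1 and -0.881 to -0.613 elsewhere. DNA copy number was not measured in these libraries, and in bulk RNA a change per cell and a change in which tumour cells were sampled cannot be told apart. The 15 windows hold 589 genes, 145 of them with an unadjusted p under 0.05. Without them 440 genes were higher and 499 lower at that threshold, and 0 passed adjustment.

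Genes of MHC class II presentation, which show peptides to CD4+ T cells, were mostly higher with olaparib. Of 17 tested genes 16 had positive differences with a median of 1.2, against 49.8% positive and a median of -0.00156 over all tested genes. In 10 of the 17 all olaparib libraries lay above both controls, against 10.5% of all genes, and 6 had an unadjusted p under 0.05, against 3.28%. Nothing passed adjustment. For comparison, the median of these 17 genes was 1.05 in MDA594, with 13 positive, and 0.719 in OR1, with 15 positive. A positive median was thus not particular to OR2. Treated and untreated scores of these genes overlapped in MDA594, and in OR1 all treated scores were higher. The promoters of 3 of these genes are shown because the genes lie in the same locus and were above both controls in all olaparib libraries. They are 250 bases before to 50 bases after the start, from RefSeq on GRCm38.p6, and capitals mark the CCAAT box on either strand.
H2-Eb1: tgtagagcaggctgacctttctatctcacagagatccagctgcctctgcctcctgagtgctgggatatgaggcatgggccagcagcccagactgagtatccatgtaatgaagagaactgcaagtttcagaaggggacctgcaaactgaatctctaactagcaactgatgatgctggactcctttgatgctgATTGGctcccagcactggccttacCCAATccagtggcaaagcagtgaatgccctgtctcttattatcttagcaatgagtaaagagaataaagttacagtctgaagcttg
H2-Aa: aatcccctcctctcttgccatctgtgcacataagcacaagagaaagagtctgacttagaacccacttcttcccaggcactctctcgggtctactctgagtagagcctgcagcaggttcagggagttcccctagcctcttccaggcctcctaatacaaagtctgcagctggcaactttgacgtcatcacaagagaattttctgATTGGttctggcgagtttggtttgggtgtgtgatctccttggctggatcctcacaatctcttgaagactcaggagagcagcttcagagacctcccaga
H2-DMb1: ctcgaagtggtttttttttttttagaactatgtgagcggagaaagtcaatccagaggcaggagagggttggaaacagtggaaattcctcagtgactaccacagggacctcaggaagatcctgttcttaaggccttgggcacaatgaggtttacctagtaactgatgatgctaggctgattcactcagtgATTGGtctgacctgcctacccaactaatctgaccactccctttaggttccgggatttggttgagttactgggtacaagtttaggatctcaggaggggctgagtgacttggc

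They lie at chr17:34305617-34305916 on the plus strand for H2-Eb1, chr17:34287774-34288073 on the minus strand for H2-Aa and chr17:34152941-34153240 on the plus strand for H2-DMb1. CCAAT on either strand was found in 11 of the 13 class II genes matched to the promoter table (84.6%) and in 42.6% of 11257 tested genes matched. A match is only a description of these letters.

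H2-Eb1 (ENSMUSG00000060586.12), the beta chain of the I-E class II molecule, was at 5.67, 7.71 and 5.50 in olaparib 1, 2 and 3 and at 3.50 and 3.64 in controls, a difference of 2.73 (SE 0.96). H2-Aa, the I-A alpha chain, was at 5.96, 7.95 and 5.69 with olaparib and at 3.89 and 4.04 in controls. Its partner H2-Ab1 was at 5.47, 7.49 and 5.17, against 3.59 and 3.82. In the 3 genes olaparib 2 is about 2 units above the other olaparib libraries, which are themselves above both controls. Cd74, the invariant chain that guides class II molecules, was at 7.08, 9.19 and 7.07, against 5.11 and 5.25. H2-DMb1, of the peptide editor H2-DM, was at 4.20, 5.21 and 4.67, against 2.24 and 3.30. Ciita, the transcriptional coactivator that switches on class II genes, was at 1.44, 3.18 and 1.57, against -0.43 and 0.28. Class II genes are polymorphic between mouse strains, and a host strain that differs from the reference could lower the reads counted.

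Of 16 tested dendritic cell genes 14 had positive differences (median 0.739), and 5 of 16 were higher at an unadjusted p under 0.05, against 3.28% of all genes. Ccl22, a chemokine of mature dendritic cells, had 54, 167 and 18 reads in olaparib 1, 2 and 3, against 2 and 4 in controls. Batf3, a factor needed by cross-presenting dendritic cells, was at 1.14, 1.48 and 1.79, against 0.39 and 0.85, and Cd83, a maturation marker, was at 1.31, 3.91 and 2.01, against 0.89 and 0.92. T cell genes had positive differences in 20 of 21 (49.8% of all genes), with a median of 1.45, and 3 of 21 were higher at an unadjusted p under 0.05 (3.28% of all genes). Trac, the constant region of the T cell receptor alpha chain, was at -2.60, 1.23 and -2.17, against -4.41 and -3.42. Cd4 was at 0.32, 2.29 and -0.23, against -0.92 and -0.54, and Lck, a kinase of T cell receptor signalling, was at 1.46, 2.08 and 1.52, against 0.68 and 1.04. The score of the T cell list was -1.35, 1.28 and -1.61 with olaparib and -2.41 and -1.22 in controls, so the groups overlap and olaparib 2 stands apart. Dendritic cell genes had medians of 1.35 in MDA594 and 0.762 in OR1, and T cell genes of 1.47 and 1.13.

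The dendritic score was higher in all olaparib libraries, as the class II score was, and its part in the class II difference was not tested. It was 1.91, 3.26 and 1.80 in olaparib 1, 2 and 3 and 0.783 and 1.3 in controls, and the class II score was 3.78, 5.12 and 3.87, against 2.84 and 3.21. The macrophage score was 3.58, 5.71 and 4.11 with olaparib and 3.98 and 4.37 in controls, so it overlaps, with olaparib 1 below both controls, and 0 of 21 macrophage genes had groups apart. Without olaparib 2 the class II median was 0.548 with 2 genes at an unadjusted p under 0.05, the dendritic median was 0.3 and the T cell median was 0.583. Without control 1 the T cell median was 0.769. In bulk tumour RNA, more cells of a type and more RNA per cell cannot be told apart.

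**Figure D4:**
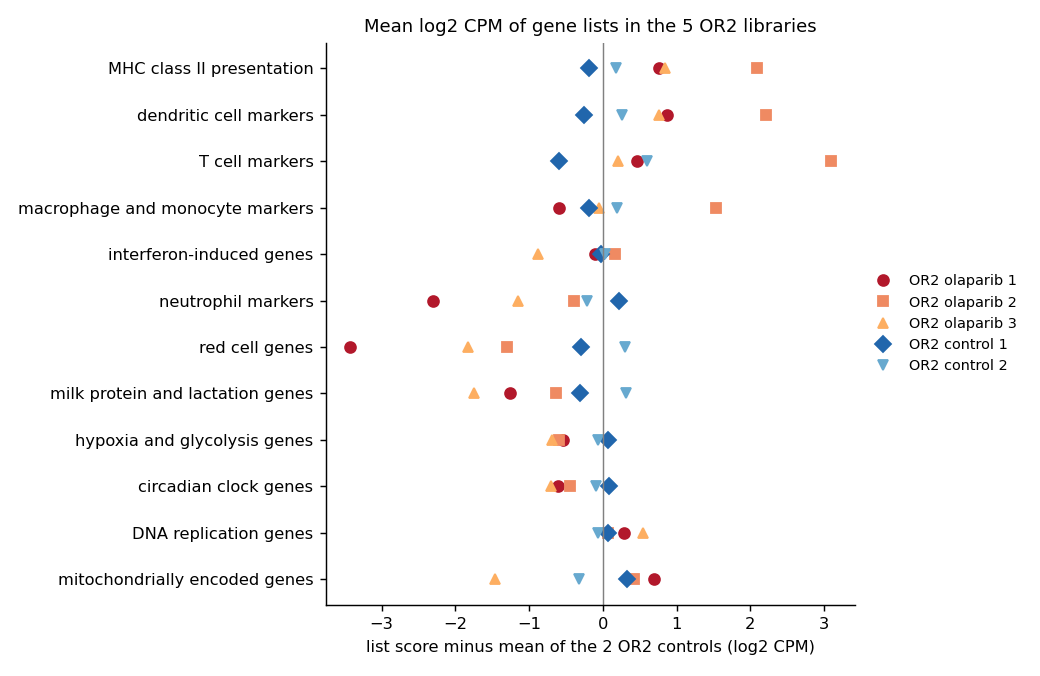
Scores of 12 gene lists (mean log2 CPM of the tested genes) in the 3 olaparib (warm colours) and 2 control (blue) OR2 libraries, minus the mean of the 2 controls (x axis). Olaparib 2 is far to the right for T cells and class II, olaparib 1 far to the left for neutrophil and red cell genes, and olaparib 3 far to the left for mitochondrially encoded genes.

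Neutrophil genes were mostly lower with olaparib. Of 22 tested genes 21 had negative differences with a median of -1.49, 10 had all olaparib libraries below both controls (10.6% of all genes did), and 5 had an unadjusted p under 0.05 (3.36% of all genes). Cxcl5 (ENSMUSG00000029371.8), a chemokine that draws neutrophils through CXCR2, was at -0.31, 0.01 and -0.43 in olaparib 1, 2 and 3 and at 3.93 and 2.02 in controls. S100a9, an abundant calcium-binding protein of neutrophils, was at 2.31, 5.30 and 4.81, against 6.43 and 5.48. Csf3r, the receptor of the growth factor G-CSF, was at 2.52, 4.82 and 3.49, against 5.87 and 4.76, and Cxcr2 was at 1.29, 3.89 and 2.60, against 4.88 and 3.58. In Csf3r and Cxcr2 olaparib 2 lies above control 2, so the groups overlap. Cxcl1, another CXCR2 ligand, was at 4.53, 5.51 and 5.45, against 7.35 and 6.29. The score was 0.902, 2.82 and 2.06 with olaparib and 3.42 and 2.99 in controls. The median was -0.855 with 2 genes at that threshold without olaparib 1, and -1.06 with 0 such genes without control 1.

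Red cell genes were the lowest list, with a median of -3.01 over 11 tested genes, 7 of them lower at an unadjusted p under 0.05 (3.36% of all genes) and 9 with all olaparib libraries below both controls (10.6%). Alas2, the first enzyme of haem synthesis in red cell precursors, was at -0.18, 2.61 and 2.37 in olaparib 1, 2 and 3 and at 4.29 and 4.94 in controls. The beta globin Hbb-bs was at 4.99, 7.86 and 7.06, against 9.30 and 10.22, and the alpha globin Hba-a2 at 3.54, 6.53 and 6.11, against 8.02 and 9.10. Olaparib 1 is the lowest library for the 3 genes and both controls are the highest. The list median was -2.09 in OR1 and 0.00101 in MDA594. Alpha and beta globins each exist in near-identical copies, so the share of each copy is uncertain. Blood left in a piece of tumour was not measured in another way, and whether it moved with treatment was not tested.

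Milk protein genes include the steepest negative difference in OR2. The caseins Csn1s1 and Csn2 lie next to each other, and their promoters are shown because STAT5, the factor that carries the prolactin signal, acts on casein genes in mammary cells. Each is 250 bases before to 50 after the start, from RefSeq on GRCm38.p6, with capitals on TTCNNNGAA, the palindrome bound by STAT5.
Csn1s1: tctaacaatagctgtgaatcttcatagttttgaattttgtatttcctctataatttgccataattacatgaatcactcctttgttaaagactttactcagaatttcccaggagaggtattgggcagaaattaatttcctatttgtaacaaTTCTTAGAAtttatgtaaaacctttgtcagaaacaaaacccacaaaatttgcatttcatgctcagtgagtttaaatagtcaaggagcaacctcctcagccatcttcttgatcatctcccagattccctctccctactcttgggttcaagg
Csn2: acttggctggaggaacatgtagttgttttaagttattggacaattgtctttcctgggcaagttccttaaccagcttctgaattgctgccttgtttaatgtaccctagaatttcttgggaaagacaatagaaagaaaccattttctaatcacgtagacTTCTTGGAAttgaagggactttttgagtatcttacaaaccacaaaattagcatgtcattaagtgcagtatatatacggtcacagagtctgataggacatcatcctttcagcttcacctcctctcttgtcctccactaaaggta

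They lie at chr5:87665958-87666257 on the plus strand for Csn1s1 and chr5:87699376-87699675 on the minus strand for Csn2. The palindrome, which reads the same on both strands, was found in 3 of the 8 milk genes matched (37.5%) and in 8.13% of 11257 tested genes matched. Csn2 (ENSMUSG00000063157.10), beta casein, had 21, 82 and 3 reads in olaparib 1, 2 and 3 and 271 and 1110 reads in controls, a difference of -5.31 (SE 1.60, adjusted p = 0.524 by limma). Csn1s1, alpha-S1 casein, had 48, 147 and 128 reads, against 838 and 2299, a difference of -4.24 (SE 0.94, adjusted p = 0.317 by limma). Csn3, kappa casein, was far more abundant, at 7.0, 7.39 and 5.84, against 8.01 and 8.19. Stat5a was at 4.64, 4.79 and 4.55 with olaparib and at 5.92 and 5.61 in controls, a difference of -1.11 (SE 0.28, adjusted p = 0.368 by limma). In these 4 genes all olaparib libraries are below both controls. The prolactin receptor Prlr was at 6.69, 6.34 and 6.77, against 6.33 and 6.10, with the groups apart in the other direction. Of the 12 milk genes 10 had negative differences, with a median of -0.65, and 3 were lower at an unadjusted p under 0.05, against 3.36% of all genes. The caseins and the chemokines Cxcl1 and Cxcl5 lie in the stretch of chromosome 5 where control 1 is high. Csn1s1 and Csn2 are higher in control 2 and Cxcl1 and Cxcl5 in control 1, and the part of that stretch in their differences was not tested.

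Hypoxia and glycolysis genes, the targets of the oxygen-regulated factor HIF1, had a median difference of -0.489, with 28 of the 30 tested below 0. In 17 of 30 all olaparib libraries lay below both controls, against 10.6% of all genes, and 7 had an unadjusted p under 0.05, against 3.36%. For comparison, the list median was -0.347 in MDA594 and -0.0701 in OR1. Gapdh, of glycolysis, was at 10.75, 11.32 and 11.52 in olaparib 1, 2 and 3 and at 11.81 and 12.39 in controls. Ero1a, an oxidase of the endoplasmic reticulum, was at 8.30, 8.58 and 8.56, against 10.14 and 9.57, and Ndrg1, a hypoxia-induced stress gene, at 6.86, 7.20 and 7.96, against 9.60 and 8.29. Adm, the vasodilator peptide adrenomedullin, was at 4.01, 3.32 and 3.04, against 5.73 and 4.40, and Pfkp, a phosphofructokinase, at 7.19, 6.73 and 6.24, against 7.92 and 7.50. Control 1 is the highest library in 4 of these 5 genes, with Gapdh the exception. The score was 7.08, 7.03 and 6.93 with olaparib and 7.68 and 7.55 in controls. The median held between -0.584 and -0.439 over all alternatives, and the 7 genes became 3 without control 1 and 6 to 11 without any other library.

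Of 19 circadian clock genes 18 had negative differences (median -0.547), 8 with all olaparib libraries below both controls (10.6% of all genes) and 6 lower at an unadjusted p under 0.05 (3.36%). Dbp, a clock output factor, was at 4.34, 4.89 and 3.86 in olaparib 1, 2 and 3 and at 5.31 and 5.53 in controls, a difference of -1.05 (SE 0.30). The repressor Per1 was at 4.31, 4.27 and 4.15, against 5.58 and 5.46, and Per2 at 4.42, 3.81 and 3.57, against 5.19 and 4.86. Nr1d1, which represses Bmal1, was at 4.96, 6.08 and 5.59, against 6.29 and 6.31. Both controls are above every olaparib library in these 4 genes. In MDA594 the list median was -0.823 and in OR1 0.175. The hour at which tumours were taken is not given in the sources used here, so hour and treatment cannot be told apart. The 6 genes became 1 without control 1.

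Of 30 DNA replication genes 28 had positive differences (median 0.297), 13 with groups apart (10.5% of all genes) and 6 at an unadjusted p under 0.05 (3.28%). Mcm4, of the replicative helicase, was at 6.64, 6.63 and 7.40 in olaparib 1, 2 and 3 and at 6.34 and 6.26 in controls, a difference of 0.59 (SE 0.23). Its partners Mcm5 and Mcm6 were at 6.46, 6.22 and 7.13, against 5.73 and 6.21, and at 7.67, 7.87 and 8.43, against 7.45 and 7.51. Cdt1, which loads the helicase, was at 5.25, 4.82 and 4.94, against 4.38 and 4.65, Gins3, of the CMG helicase, at 3.84, 3.13 and 3.79, against 2.79 and 2.83, and Slbp, which binds histone mRNA, at 5.61, 5.58 and 5.82, against 5.18 and 5.22. The checkpoint kinase Chek1 was at 5.10, 4.67 and 5.24, against 4.58 and 4.39. In all 7 genes the groups do not overlap. At least Mcm5, Cdt1 and Gins3 lie on the part of chromosome 8 where control 1 is low, and at least Gins3 where both controls are low. The part of that stretch in their differences was not tested. The list score was 5.72, 5.51 and 5.97 with olaparib and 5.50 and 5.36 in controls, so olaparib 2 is level with control 1. The 6 genes became 1 without olaparib 3 and 2 without control 1.

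Among genes tied to PARP inhibitor resistance, Parp1, the drug's main target, was at 6.77, 6.89 and 7.69 in olaparib 1, 2 and 3 and at 6.84 and 6.98 in controls, and Parg, which removes ADP-ribose chains, at 4.73, 4.83 and 5.26, against 4.68 and 4.70. Brca1 was at 6.29, 5.62 and 5.97, against 6.06 and 5.57, and Brca2 at 6.61, 5.82 and 6.05, against 6.11 and 5.73. For Parp1, Brca1 and Brca2 the groups overlap. Of 30 genes of homologous recombination and the Fanconi pathway 21 had positive differences, with a median of 0.161. In this list 3 had all olaparib libraries above (10.5% of all genes) and 2 all below both controls (10.6%). Xrcc3 alone had an unadjusted p under 0.05, and was lower (3.33% of the list, against 3.36% of all genes). Of 22 genes of end joining and shieldin 17 were positive, with a median of 0.108, and 5 had groups apart above (10.5% of all genes) and 1 below (10.6%). Xrcc5 alone had an unadjusted p under 0.05, and was higher (4.55% of the list, against 3.28% of all genes). Both lists are thus near the share over all genes at that threshold. Xrcc5, the KU80 subunit that binds broken ends, was at 4.92, 4.64 and 4.97, against 3.31 and 4.47. Among drug efflux pumps, Abcg2, which exports several PARP inhibitors in cell systems, was at 5.57, 6.26 and 5.74, against 7.08 and 6.75, a difference of -1.06 (SE 0.35). Abcc4, which exports cyclic dinucleotides and nucleotides, was at 4.43, 3.86 and 3.94, against 6.08 and 5.55. Abcb1a and Abcb1b, the mouse P-glycoproteins, were low and overlapping, at -0.28, 0.84 and -1.08, against -0.88 and -0.30, and at 0.14, 1.61 and 0.04, against -0.0031 and 0.53.

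Genes induced by interferon did not separate OR2 tumours by treatment. Of 37 tested genes 6 had positive and 31 negative differences, with a median of -0.292, 1 with all olaparib libraries above both controls (10.5% of all genes), 8 with all below (10.6%), and 0 at an unadjusted p under 0.05 (3.28% higher and 3.36% lower of all genes). Without olaparib 3 the median was 0.0221. Isg15, a ubiquitin-like modifier, was at 2.50, 3.38 and 2.24 in olaparib 1, 2 and 3 and at 3.19 and 3.41 in controls. Rsad2, the antiviral enzyme viperin, was at 3.68, 4.39 and 3.16, against 4.50 and 4.87, and Cxcl10, a chemokine of T and NK cells, at 3.74, 3.90 and 3.13, against 3.73 and 3.22. Cgas was at 4.35, 3.58 and 4.13, against 3.43 and 3.53, and Sting1 at 4.43, 5.60 and 5.35, against 5.05 and 5.49. The list score was 4.02, 4.30 and 3.25 with olaparib and 4.10 and 4.16 in controls. In MDA594 it was 4.39 to 5.72 with olaparib and 2.48 to 4.11 in controls, and in OR1 3.25 to 4.85 with olaparib and 2.61 to 2.85 in controls. Both untreated OR2 libraries thus lie above the untreated libraries of the other lines, apart from 1 MDA594 library at 4.11 that lies between them, and treated OR2 overlaps treated OR1.

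The difference between responses was tested gene by gene as an interaction in the same fit, and both interactions share the 5 OR2 libraries. Against MDA594, 0 genes passed adjustment (0 percent), with a smallest adjusted p of 0.556, and 508 were higher (3.11%) and 498 lower (3.05%) in the OR2 response at an unadjusted p under 0.05. All 37 interferon genes had a lower response in OR2 than in MDA594, by a median of 2.15, and 29 had an unadjusted p under 0.05. Against OR1, 0 genes passed (0 percent), with a smallest adjusted p of 0.0595, and 618 were higher (3.78%) and 689 lower (4.22%) at that threshold. There 36 of 37 interferon genes had a lower response in OR2, and 17 had an unadjusted p under 0.05. The 29 became 17 without olaparib 3 and 19 without either control, and the 17 became 6 without olaparib 3, 8 without control 2 and 11 without control 1.

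For neutrophil genes, 21 of 22 had a lower response in OR2 than in OR1, where their median was 1.06, and 13 had an unadjusted p under 0.05. That count was 7 without control 1 and 9 to 16 without any other OR2 library. For replication genes the medians were 0.297 in OR2, 0.416 in MDA594 and -0.395 in OR1, and 0 of 30 had a lower response in OR2 than in OR1.

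**Figure D5:**
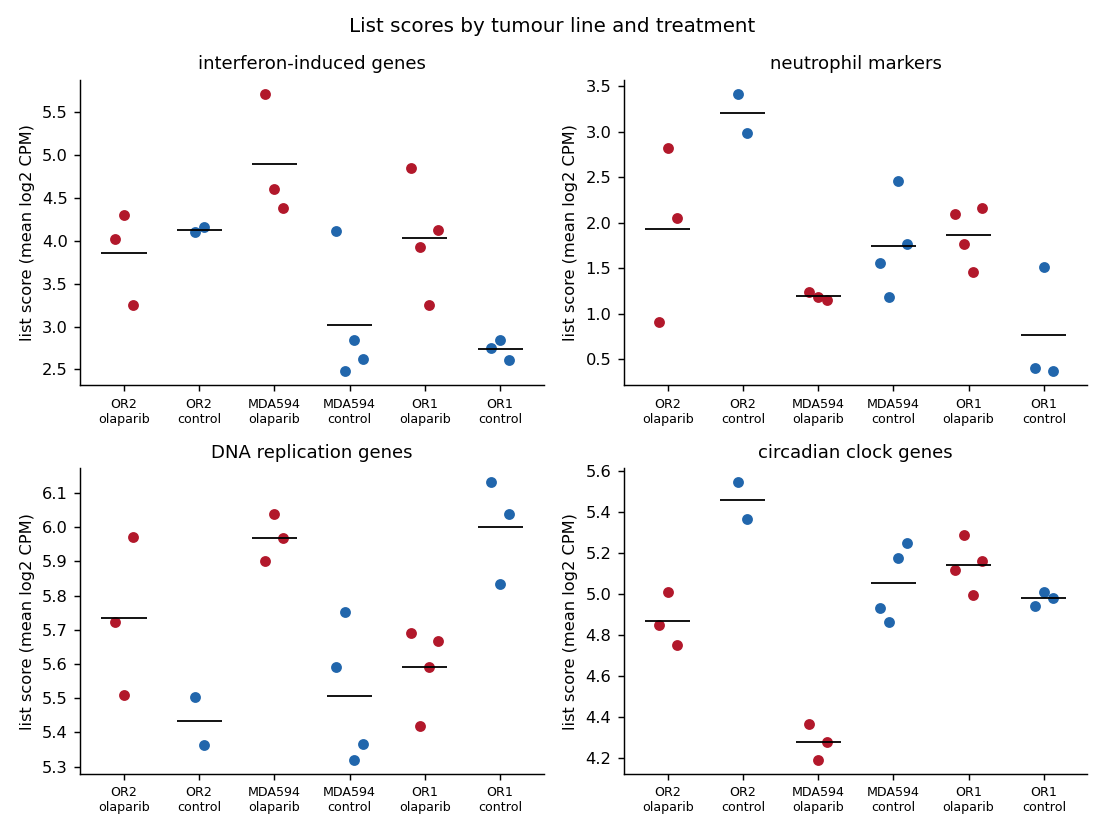
Scores of 4 gene lists (mean log2 CPM, y axis) in OR2, MDA594 and OR1 tumours with olaparib (red) and without (blue), with 1 point per library and a line at the group mean. Interferon scores of untreated OR2 (4.10 and 4.16) lie near those of treated OR1, and neutrophil scores of untreated OR2 (3.42 and 2.99) lie above all other libraries.

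The genes with the smallest p in the interaction with OR1 were Nlrp10, Eva1c, Gpat3 and Fhod3. Nlrp10 (ENSMUSG00000049709.5), an adaptor of the inflammasome family, was at 0.63, 1.77 and 1.0 in olaparib 1, 2 and 3 and at 4.28 and 3.14 in controls, a difference of -2.57 (SE 0.53), while in OR1 it was 2.06. The gap between the 2 responses was -4.63, with an adjusted p of 0.0595 by limma, which became 0.00543 without control 2, 0.011 without olaparib 2 and 0.44 without control 1, within a range of 0.00398 to 0.44 over all alternatives. Eva1c, a heparin-binding membrane protein, had a response of -2.84 in OR2 and 1.52 in OR1, and Gpat3, an enzyme of triglyceride synthesis, of -2.0 and 1.75. Fhod3, an actin-organising formin, had a response of 1.14 in OR2 and -1.05 in OR1. In all 4 the OR2 groups do not overlap.

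Against MDA594 the smallest p belonged to Socs3, a feedback inhibitor of cytokine signalling, at 5.58, 6.17 and 6.03 in olaparib 1, 2 and 3 and 6.80 and 6.66 in controls. Its response was -0.81 in OR2 and 0.52 in MDA594. Bdh2, a dehydrogenase of ketone bodies, had 134, 208 and 323 reads with olaparib, against 20 and 45, with a response of 2.36 in OR2 and -1.70 in MDA594. Abat, which degrades the transmitter GABA, had a response of 1.69 in OR2 and -0.94 in MDA594, and Inf2, a formin on the far end of chromosome 12, of -0.93 and 0.64. Zic5 had -3.62 in OR2 and 4.52 in MDA594. Each of these 5 gaps had an adjusted p of 0.556 or 0.557 by limma. With the title number as a covariate it was 0.0206 to 0.0389, and 302 genes passed. In that fit olaparib 1 adds nothing to the OR2 response. The MDA594 response there comes from 2 controls of 1 host code and 2 treated libraries of another. The host correlation of that fit was -0.127, so libraries of 1 host code were not treated as alike. Its low p-values thus do not account for the spread between hosts.

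Of the other lists, Wnt and Notch genes had 16 of 23 negative differences, a median of -0.248 and 3 lower (3.36% of all genes) and 1 higher (3.28%) at an unadjusted p under 0.05. Jag1, a Notch ligand, was at 5.48, 7.06 and 6.25 in olaparib 1, 2 and 3 and at 7.78 and 7.76 in controls, and Lef1, a Wnt-responsive transcription factor, at 3.49, 4.67 and 4.81, against 5.28 and 5.71. Wnt7b was at 3.74, 3.11 and 4.78, against 2.17 and 2.81. In the 3 genes the groups do not overlap. Luminal epithelial genes were positive in 12 of 18, with Cldn7, a tight junction protein, at 5.85, 5.66 and 6.46, against 2.86 and 5.19, and Krt7 at 5.88, 6.28 and 7.84, against 3.88 and 5.23. Control 1 is low in both. Elf3, an epithelial ETS factor, was at 6.47, 6.42 and 6.72, against 7.76 and 7.08. The unfolded protein response had a median of 0.146 with Xbp1, its transcription factor, at 7.69, 7.86 and 7.57, against 8.5 and 8.41. NRF2 targets had a median of 0.0725, with Me1, malic enzyme, at 8.16, 8.19 and 8.14, against 9.17 and 8.62, and Srxn1, sulfiredoxin, at 4.72, 4.49 and 4.78, against 3.21 and 4.10. Tiparp, a mono-ADP-ribosyltransferase, was at 5.06, 5.16 and 5.29, against 6.39 and 5.49. Among imprinted genes, Igf2r was at 9.05 in olaparib 1 against 4.85 and 3.79 in olaparib 2 and 3 and 3.84 and 4.69 in controls, so 1 library carries its difference of 1.63 (SE 1.01).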

How the data were processed

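Tumour RNA (RNeasy Mini kit) went into libraries made with a KAPA stranded mRNA kit, per the labels' protocols. The submitters' processing notes name GRCm39, STAR 2.7.10a, RSEM 1.3.1 and limma. The deposited values are log2 CPM made by the authors, with 0.5 reads added before scaling, and whole reads were recovered from them within a tolerance of 0.01. Genes above a log2 CPM of 0 in at least 2 libraries were kept, 16330 of 16411.

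Group means over 19 libraries were fitted with limma 3.58.1 in R 4.3.3, with a mean-variance trend and a correlation of 0.404 between libraries of 1 host code, as the last title field was read, and p-values were Benjamini-Hochberg adjusted over all tested genes. The method was tested on simulated data. One library whose title and treatment label disagree was left out. Text genes were the 12 largest differences in each direction without overlap and a mean of at least 1, up to 4 members per list and 5 interaction genes in each direction, and others were chosen after their values were seen. The 44 lists, the windows and the genes shown were chosen with earlier results of these data known. Chromosome and gene order come from GENCODE and promoters from RefSeq, both on GRCm38. The number of libraries limits the precision.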

Additional observations from a re-analysis of the deposited data

Results flagged for a closer look

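The DNA replication score was higher with olaparib in OR2, at 5.72, 5.51 and 5.97 against 5.50 and 5.36 in controls, and lower in OR1, at 5.42 to 5.69 against 5.83 to 6.13 in controls. It was picked out because treated and untreated scores did not overlap in either of the 2 lines and lay in opposite directions. The 2 responses differ by 0.711. The difference of the scores was not tested. In OR2 olaparib 2 and control 1 are almost level. In MDA594 the score was 5.90 to 6.04 with olaparib and 5.32 to 5.75 in controls.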

How the results depend on the processing

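No paired analysis was possible because treated and untreated OR2 libraries share no host code and no replicate number in the labels. Title numbers are shared by both controls with olaparib 2 and 3, and a fit with them as a covariate was added after seeing the data. In that fit the MDA594 response rests on 2 treated and 2 untreated libraries, each pair from 1 host code. Results were recomputed under 16 alternatives, 15 for 6 genes that a stricter filter removes. With title numbers 75 genes passed adjustment in OR2, with 17 of the genes named here, and 302 against MDA594, 1463 were higher and 1989 lower at an unadjusted p under 0.05, 180 of them list genes, and Brca1 was at -0.0191 and Sting1 at 0.203. The 0 genes past adjustment in OR2 became 1 on log2(CPM + 1), 13 without the correlation within host codes, 149 with library weights, and 0 to 102 when 1 library was left out (102 without control 2). For OR2 against MDA594 the 0 genes became 459 with weights and 0 to 30 without 1 library. Against OR1 they became 2, 9 and 122 under the first 3 settings and 0 to 25 without 1 library. The 535 genes higher at an unadjusted p under 0.05 became 906 without the correlation, 1416 with weights and 362 to 854 without 1 library. The 549 lower became 926, 1215 and 452 to 1213. The 74 list genes at that threshold became 170 with weights and 39 to 98 without 1 library. Leaving out the 15 windows, an alternative chosen after seeing the data, left 440 higher and 499 lower. Of 108 named genes 8 changed sign: Cxcl10 (-0.127 with the series of library names as covariate, -0.14 to 0.367 without 1 library), Brca1 (-0.131 with weights, -0.0991 to 0.389), Brca2 (-0.0374 with weights), Sting1 (0.245 with weights, -0.381 to 0.203) and, without 1 library, Abcb1a (-0.0916 to 0.873), Abcb1b (-0.172 to 0.613), Parp1 (-0.0827 to 0.381) and Epcam (-0.151 to 0.588). The causes were not tested. Of 44 list medians 23 changed sign under some alternative. Fits of OR2 alone used no host correlation, and the 2 count models listed as alternatives were not run.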

Other observations

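Skeletal muscle genes had a median difference of -1.02 in OR2, with 15 of 18 negative and 0 at an unadjusted p under 0.05, against a median of 3.91 in MDA594 and -2.17 in OR1. The MDA594 value rests on its olaparib library 3, with a muscle score of 6.13. The other MDA594 olaparib libraries were at -3.09 and -3.29, and MDA594 controls at -3.58 to -2.77. In OR1, olaparib library 3 was at 1.69 and the other olaparib libraries at -3.17 to -2.16. Ribosomal protein genes were negative in 21 of 22, with a median of -0.156, and endothelial genes in 14 of 20, with a median of -0.183. Cholesterol synthesis genes had a median of 0.0868 in OR2, -0.3 in MDA594 and -0.425 in OR1.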
